A study of Mus musculus with 15 samples.

Results

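Islet RNA of mice carrying both a human IAPP and a human CAST transgene (hIAPP_hCAST) was compared with islet RNA of wild-type mice (WT), to describe what differs from WT when both transgenes are present. The comparison takes 3 hIAPP_hCAST and 3 WT samples, 6 of the 15 samples of the series, chosen by their labelled group. All mice were FVB/NJ and 9 to 10 weeks old, and bulk pancreatic islets were sequenced. In hIAPP_hCAST mice the human IAPP transgene was under the insulin II promoter and the human CAST transgene under an insulin promoter, per the labels. WT mice carried neither transgene. The single transgenic groups used beside this comparison carried human IAPP (hIAPP) or human CAST (hCAST), each under the insulin II promoter, with 3 samples each, and rodent IAPP mice (rIAPP, 3 samples, same promoter) are drawn in the plots. The labels do not say that each sample is a separate animal, so p-values measure only the spread between these samples. The numbers in the sample titles of hIAPP_hCAST lie next to those of hIAPP, and those of WT next to those of hCAST, with a wide gap between both sets. Whatever these numbers stand for cannot be told apart from the human IAPP transgene, and no source used here gives the line, litter or colony.

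IAPP, islet amyloid polypeptide, is a hormone stored and released with insulin by beta cells. Its human form can aggregate into amyloid, which macrophages of the islet take up, whereas the rodent form does not aggregate. CAST encodes calpastatin, the endogenous inhibitor of the calpain proteases, which are activated by calcium and can contribute to the death of stressed beta cells. Mature beta cells are known by high insulin, urocortin 3 and glucose-sensing genes, which fall when beta cells are stressed or lose identity.

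The libraries differed in quality between the groups. Rn45s, Lars2 and Mir6236, which collect ribosomal RNA reads, made up 9.40%, 94.3% and 68.9% of the WT libraries 1, 2 and 3, against 0.322% to 0.470% of the hIAPP_hCAST libraries, and were left out before scaling. The counts left in the WT libraries were 34418809, 1667190 and 8796210, against 36124533 to 40062153 in hIAPP_hCAST. Digestive enzyme genes of acinar tissue, which surrounds the islets, took up 8.29%, 4.61% and 1.97% of these counts in WT 1, 2 and 3 and 8.27%, 16.1% and 1.29% in hIAPP_hCAST 1, 2 and 3. The third hIAPP_hCAST library stood apart: it had the lowest acinar share, lower sums of macrophage and matrix genes than the other hIAPP_hCAST libraries, and the lowest weight of all 15 libraries (0.248) in a fit that weights libraries by quality. Correlations of log2 CPM between libraries were 0.981 to 0.993 within hIAPP_hCAST, 0.977 to 0.992 within WT and 0.970 to 0.991 between both, and 0.994 to 0.997 within the other groups. In 3 equal classes of gene length, the median log2 fold change was 0.07 for the shortest genes, 0.03 for the middle class and -0.03 for the longest. The longest class held 173 of the genes called lower and 86 of those called higher, against 51 and 97 in the shortest, and the part of length in the calls was not tested. Of the 73 genes named below that were called, 17 were also called without WT 2 and WT 3: Sema5a, Snhg18, Osbpl1a, Tram1l1, H2-Ea-ps, 1700006A11Rik (the 6 line genes, described below), Ms4a7, Cd84, Apoe, H2-Aa, Cd74, Ins2, Ucn3, Scn3a, Cd81, Nnat and Tmem45a. The calls of the other 56 were lost in that fit, which leaves 1 WT library that is assumed to vary like the other groups. The hormones that define islets were at high levels in all 6 libraries. The lowest value among Ins2, Ins1, Iapp and Gcg in them was 20497 CPM, for Gcg in WT 3. Mouse Cast stood at 31.1, 30.4 and 32.1 CPM in hIAPP_hCAST and 28.6, 30.9 and 30.7 CPM in WT, and mouse Iapp at 32771, 33764 and 36207 CPM and 34532, 62469.5 and 33860.0 CPM. Neither differed by test (adjusted p = 0.699 and 0.276), and these counts do not measure the human transgenes, whose reads were not analysed here.

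Of 15595 tested genes, 535 differed between hIAPP_hCAST and WT at an adjusted p below 0.05 (called, 3.43%), 263 higher (1.69%) and 272 lower (1.74%) in hIAPP_hCAST. The differences of at least 2-fold were mostly rises, 95 of 120. Values are log2 fold changes of CPM (counts scaled to a common library size with TMM after leaving out the ribosomal-rich genes) with a standard error, and the median over all tested genes was 0.02. The 3 libraries of each group did not overlap in 2958 genes (19%), 517 of the 535 called genes among them. With hCAST in place of WT as the group without an IAPP transgene, 116 genes differed from hIAPP_hCAST (0.744%), and 96 of the 535 genes were among them with the same direction. Both comparisons share the hIAPP_hCAST libraries and the estimate of spread. Shared calls and directions, also those of single genes below, are therefore no independent support. Beside these comparisons, hIAPP against WT called 1819 genes (11.7%) and hCAST against WT 3 genes (0.0192%) with the same WT libraries. A test of hIAPP_hCAST against hIAPP called 70 genes (0.449%), 14 higher and 56 lower in hIAPP_hCAST. When WT 2 and WT 3, the libraries with most ribosomal reads, were left out, 46 of 16113 genes were called (0.285%), of which 45 were among the 535. Leaving out 1 library at a time gave 207 (without WT 3) to 931 calls (without hIAPP_hCAST 3), and 116 genes were called in all 6 such fits. Genes called higher were 225, 139 and 83 without WT 1, 2 and 3, and genes called lower 253, 174 and 124. Without hIAPP_hCAST 1, 2 and 3 there were 199, 144 and 534 higher and 230, 124 and 397 lower, of 15772 to 15812 tested. Counts of list members called in these fits, given below, stand beside these totals.

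**Figure D1:**
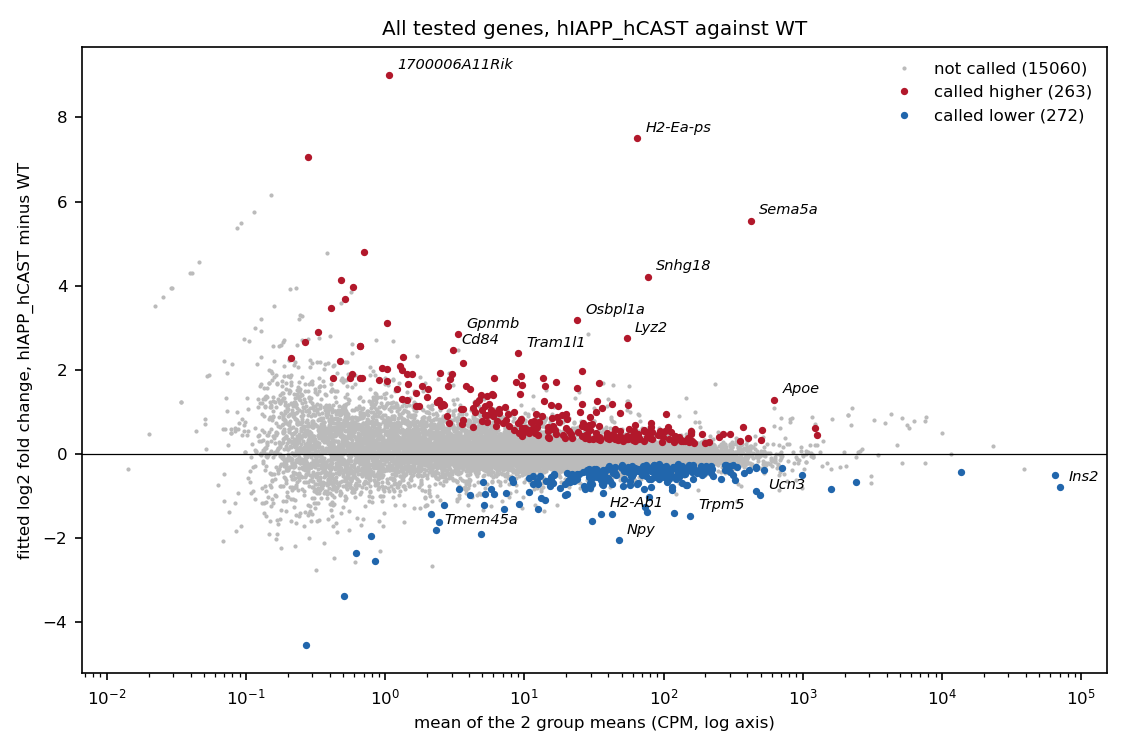
Each point is a tested gene, with the mean of both group means in CPM on a log axis and the fitted log2 fold change of hIAPP_hCAST against WT on the vertical axis. The 263 genes called higher are red and the 272 called lower are blue; Selected genes, the 6 line genes among them, are named, and most calls lie within 2-fold of WT.

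A list of 6 genes that mark whole groups of the series held the 5 smallest p-values of the comparison. They were taken from earlier results of these data, so their direction is no independent evidence here. Sema5a encodes a transmembrane semaphorin, a guidance and adhesion protein, and Snhg18 is a non-coding RNA that hosts a small nucleolar RNA. Their annotated starts lie head to head on chromosome 15, Sema5a on the forward strand (chromosome 15, 32244810 to 32696341) and Snhg18 on the reverse strand (chromosome 15, 32240565 to 32244662, GRCm38). The 150 bases between both RefSeq start sites, chr15:32244663-32244812 on the forward strand of GRCm38.p6, are shown because both genes rose together, with the letters GGGCGG of a GC box in capitals where they occur on either strand, overlapping matches included.
Snhg18 to Sema5a: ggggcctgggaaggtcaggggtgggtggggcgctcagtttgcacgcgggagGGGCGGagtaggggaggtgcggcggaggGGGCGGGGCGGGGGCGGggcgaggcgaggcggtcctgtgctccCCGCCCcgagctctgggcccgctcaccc
The stretch holds 5 matches and 79.3% G or C, and 35.7% of the 32851 RefSeq promoter windows of 300 bases hold at least 1 match, which is a description of the letters and not of binding.

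Sema5a stood at 824, 762 and 887 CPM in hIAPP_hCAST 1, 2 and 3 and at 16.0, 24.6 and 17.3 CPM in WT. No library of either group came near the other, and the log2 fold change was 5.55 ± 0.14 (adjusted p = 1.66e-13). Snhg18 was at 151, 126 and 162 CPM against 7.98, 10.7 and 6.99 CPM (4.21 ± 0.13, adjusted p = 1.18e-12). No source used here says whether reads of this head-to-head pair were split by strand. Osbpl1a, which encodes an oxysterol-binding protein of endosomes, was at 45.4, 48.5 and 36.1 CPM against 5.02, 3.15 and 4.77 CPM (3.17 ± 0.15, adjusted p = 6.63e-10). In hIAPP islets these 3 genes stood at 768 ± 8.40, 133 ± 5.27 and 37.3 ± 4.29 CPM (mean ± SD, n = 3), and in hCAST islets at 16.6 ± 1.87, 9.14 ± 0.577 and 5.996 ± 0.290 CPM. Osbpl1a was also high in rIAPP islets, at 38.8 ± 1.65 CPM, and Sema5a and Snhg18 were at 7.20 ± 1.32 and 13.2 ± 1.48 CPM there. None of the 3 differed between hIAPP_hCAST and hIAPP by test (adjusted p = 0.803, 0.642 and 0.477).

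The other 3 genes were high in the groups with human CAST. Tram1l1, a relative of a translocating-chain membrane protein of the endoplasmic reticulum, was at 15.8, 12.8 and 15.9 CPM in hIAPP_hCAST and 2.71, 3.78 and 2.77 CPM in WT (2.40 ± 0.18, adjusted p = 1.11e-06). 1700006A11Rik, an annotated gene 76246 bases from Tram1l1 on chromosome 3, had 248 counts in the hIAPP_hCAST libraries and 0 in the WT libraries, which makes it at least 32.6-fold higher when the WT group is set to the floor of 3 counts (95% lower limit 11.01). H2-Ea-ps, a class II histocompatibility pseudogene on chromosome 17, had 15405 counts against 30, a ratio of 202 per count outside the ribosomal-rich genes (95% interval 142 to 300, exact, counting error only). Its libraries were uneven within hIAPP_hCAST, at 143, 76.0 and 169 CPM, with all WT libraries below 1 CPM. In hCAST islets Tram1l1, 1700006A11Rik and H2-Ea-ps stood at 14.1 ± 1.15, 2.07 ± 0.139 and 71.5 ± 3.54 CPM, and they were the 3 genes called between hCAST and WT. Against hIAPP all 3 were higher in hIAPP_hCAST by test (adjusted p = 7.21e-08, 7.9e-05 and 3.74e-06). All 6 genes were called in each of the 6 fits without 1 library and without WT 2 and WT 3.

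**Figure D2:**
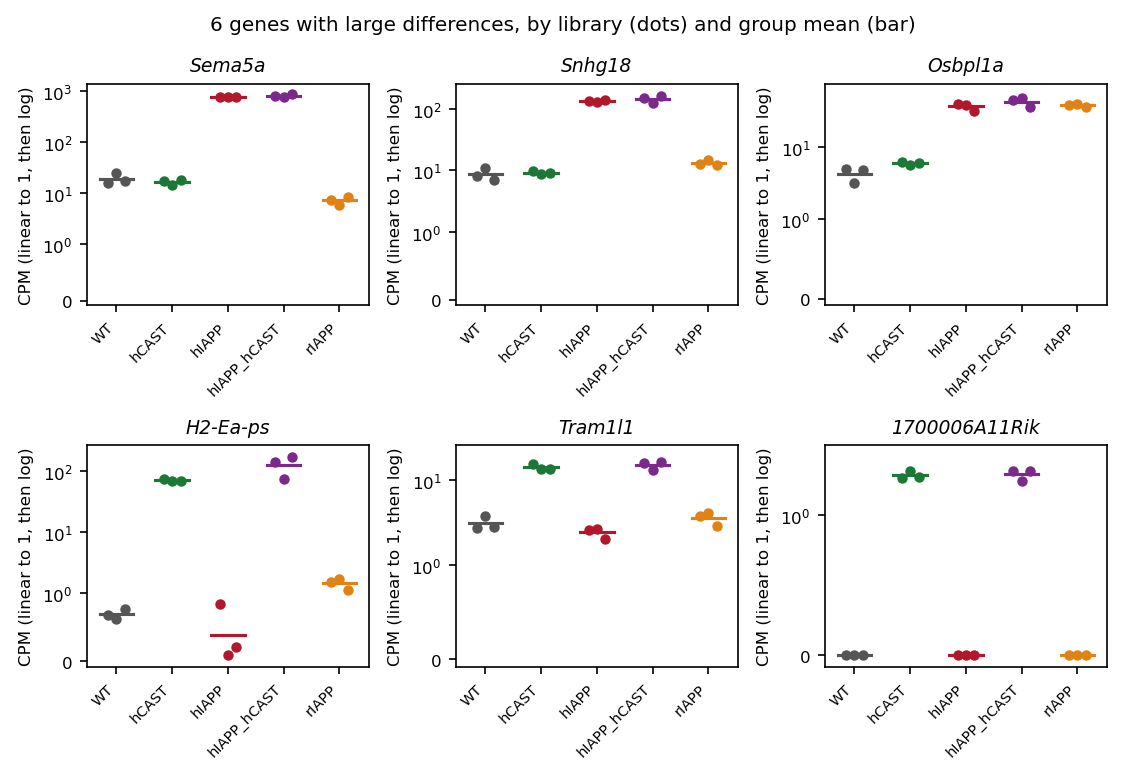
CPM of the 6 genes in each library (dots) and group mean (bar) for the 5 groups, on an axis that is linear up to 1 CPM and logarithmic above. Sema5a and Snhg18 are high in hIAPP and hIAPP_hCAST, Osbpl1a in hIAPP, hIAPP_hCAST and rIAPP, and H2-Ea-ps, Tram1l1 and 1700006A11Rik in hCAST and hIAPP_hCAST.

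Around Sema5a, 8 of the 13 tested genes within 1 Mb were called, Sema5a and Snhg18 included. The others moved both ways: Snord123, the small nucleolar RNA inside Snhg18, rose (4.79, adjusted p = 0.00525, under 2 CPM), Cct5, a chaperonin subunit, rose (0.40, adjusted p = 0.0226), and Cpq, a secreted carboxypeptidase, fell by 0.53 (adjusted p = 0.000369). Sdc2, Ankrd33b and Cmbl also fell, with log2 fold changes of -0.40, -0.68 and -0.93 (adjusted p = 0.014, 0.00165 and 0.0116). Around Osbpl1a it was the called gene among 12 tested, and around Tram1l1 1700006A11Rik was the other called gene of 7. Around H2-Ea-ps, 4 of 99 tested genes were called, H2-Ea-ps included. Among them were H2-Aa and H2-Ab1, 54136 and 72540 bases away, which both fell and are described below. Whether these falls are linked to the position was not tested. Over all 15595 tested genes, 3.43% were called. The neighbours of Sema5a, apart from Snhg18 and Sdc2, were named for their position after their values were seen.

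Genes of macrophages were higher in hIAPP_hCAST islets. Of 22 macrophage markers, 12 were called higher, 0 lower and 10 were not called, with a median log2 fold change of 0.95 beside 0.02 over all tested genes. Fewer or more cells of a type and less or more RNA per cell cannot be told apart in bulk islets. The summed level of the markers was 679.7, 475 and 394 CPM in hIAPP_hCAST 1, 2 and 3 and 251, 189.6 and 262 CPM in WT, so that the groups did not overlap. In hIAPP islets the same sum was 678 to 976 CPM, and in hCAST islets 264 to 282.004 CPM. Lyz2, the lysozyme of macrophages, had the largest rise of the list, at 143, 80.9 and 61.0 CPM against 13.6, 11.97 and 15.6 CPM. Every hIAPP_hCAST library was above every WT library, with a log2 fold change of 2.75 ± 0.30 (adjusted p = 0.000896). Ms4a7, a tetraspan protein of tissue macrophages, stood at 10.6, 7.22 and 8.61 CPM against 3.15, 1.89 and 3.99 CPM (1.41 ± 0.19, adjusted p = 0.00103). Cx3cr1, the fractalkine receptor, stood at 27.0, 22.4 and 16.5 CPM against 6.32, 2.52 and 7.32 CPM (1.80 ± 0.26, adjusted p = 0.00217). Emr1, which encodes the F4/80 antigen, stood at 7.53, 6.71 and 4.80 CPM against 2.43, 1.89 and 3.55 CPM (1.20 ± 0.23, adjusted p = 0.0117), and its call was lost without WT 1 (adjusted p = 0.0853). The number of markers called was 4 without WT 1, 8 without WT 2, 6 without WT 3, 9 without hIAPP_hCAST 1 or 2 and 13 without hIAPP_hCAST 3. Without both WT 2 and WT 3 it was 1, Ms4a7, with a median of 0.95, and Lyz2 and Cx3cr1 had adjusted p-values of 0.0556 and 0.0567. Against hCAST as reference, 10 of the 22 markers were called higher. In hIAPP islets 18 of the 22 were called higher than WT. The median of the markers in the test of hIAPP_hCAST against hIAPP was -0.598, and 1 of the 22 had a positive value. Only Ms4a7 was called lower in that test and 0 markers higher. Its call was lost without hIAPP 1, 2 or 3 (adjusted p = 0.122, 0.0874 and 0.058).

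Several of the 12 largest rises were genes of macrophages. Fcrls, an Fc receptor-like protein of resident macrophages, had 217 counts against 9, a ratio of 9.50 (exact 95% interval 4.91 to 21.0). Gpnmb, a membrane glycoprotein of lipid-laden macrophages, was at 7.83, 6.20 and 2.502 CPM against 0.498, 1.89 and 1.22 CPM (2.84 ± 0.57, adjusted p = 0.0174). Its lowest hIAPP_hCAST library, the third, was nearest to the WT libraries. The 12 largest rises and falls were picked among genes without overlap, so for them the lack of overlap is no support. Cd84, an adhesion receptor of leukocytes, was at 6.05, 4.58 and 4.64 CPM against 0.748, 1.26 and 1.22 CPM (2.47 ± 0.31, adjusted p = 0.00065). With 1667190 counts left in WT 2, the values of low genes in that library rest on few reads, here and elsewhere. Fcrls, Ctse and Tlr7 had 0 counts in it. Trem2, the lipid-sensing receptor of macrophages and microglia, was at 9.77, 4.74 and 3.61 CPM against 1.28, 0.630 and 1.66 CPM (2.15 ± 0.42, adjusted p = 0.0133). Ctse, an endosomal aspartic protease, Tlr7, an endosomal sensor of single-stranded RNA, and Bcl2a1b, a BCL2 family survival factor with near-identical copies in the genome, rose by 2.31 ± 0.39, 2.08 ± 0.38 and 2.03 ± 0.38 (adjusted p = 0.00492, 0.00881 and 0.00967). Cd84, Ctse and Tlr7 were called in all 6 fits without 1 library, while Fcrls, Gpnmb, Trem2 and Bcl2a1b lost their call without WT 1 (adjusted p = 0.117, 0.139, 0.0853 and 0.0893), and Gpnmb also without hIAPP_hCAST 2 (adjusted p = 0.0505). Without WT 2 and WT 3, Cd84 was called (adjusted p = 0.014), and Ctse and Tlr7 were not (0.0615 and 0.107).

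Of 16 genes of lipid-associated macrophages, 6 were called higher and 0 lower, with a median of 0.57. Apoe, the apolipoprotein of lipid-handling macrophages that is also made by other cells, was the most abundant of them. It stood at 1103, 901 and 661 CPM in hIAPP_hCAST and 331, 347 and 410.0 CPM in WT (1.29 ± 0.16, adjusted p = 0.000638), called in all 6 fits without 1 library and without WT 2 and WT 3 (adjusted p = 0.0405). Ctsd, the lysosomal protease cathepsin D, stood at 703, 599.9 and 514 CPM against 447, 392 and 392 CPM (0.56 ± 0.11, adjusted p = 0.014). Its call was lost without WT 2 and without WT 3 (adjusted p = 0.0515 and 0.0651), and the adjusted p was at the threshold without hIAPP_hCAST 1 (0.05). The number of these genes called was 2 without WT 1, 3 without WT 2, hIAPP_hCAST 1 or hIAPP_hCAST 2, 4 without WT 3, 7 without hIAPP_hCAST 3 and 1 without both WT 2 and WT 3. Of 15 complement genes, 4 were called higher, with a median of 0.50. C1qc and C1qb, chains of the recognition molecule C1q made by macrophages, stood at 27.6, 21.3 and 16.7 and 26.7, 23.1 and 16.9 CPM against 10.998, 8.82 and 7.98 and 12.2, 13.2 and 11.4 CPM. Their log2 fold changes were 1.18 ± 0.22 and 0.88 ± 0.18 (adjusted p = 0.0121 and 0.0157). C5ar1 and C3ar1, receptors for the complement anaphylatoxins, rose by 1.72 ± 0.38 and 1.39 ± 0.32 (adjusted p = 0.0223 and 0.0283). C1qb lost its call without WT 1 or WT 3 (adjusted p = 0.0617 and 0.0803), C5ar1 without WT 3 or hIAPP_hCAST 2 (0.0949 and 0.0676) and C3ar1 without each library but hIAPP_hCAST 3 (0.0621 to 0.103). Without WT 3 none of the complement genes was called (C1qc at an adjusted p of 0.0682), without WT 1 or hIAPP_hCAST 2 there were 2, without WT 2 or hIAPP_hCAST 1 there were 3, and without hIAPP_hCAST 3 there were 8. No complement gene was called without WT 2 and WT 3, where the adjusted p of C1qc was 0.248.

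Of 16 tested chemokines and chemokine receptors, Cx3cr1 and Cxcl13 were called higher and none lower. Cxcl13, the chemokine that attracts B cells, was low throughout, at 0.794, 1.26 and 0.676 CPM against 0.0312, 0 and 0.111 CPM (adjusted p = 0.00475), and its call was lost without WT 1 (adjusted p = 0.0788). Ccr1, a chemokine receptor of myeloid cells, had values in the other direction, 0.903, 1.38 and 0.496 CPM against 2.31, 2.52 and 2.00 CPM, but did not pass the test (adjusted p = 0.0758). Among 15 lymphocyte markers, 10 were below the filter on low counts, among them the T cell receptor genes Cd3d, Cd3e and Cd3g and the B cell genes Ms4a1 and Cd79b. Of the 5 tested, Cd79a and Cd4 were called higher. Cd79a, a chain of the B cell receptor complex, was at 35.9, 34.8 and 35.1 CPM against 15.7, 20.2 and 13.5 CPM (1.18 ± 0.18, adjusted p = 0.00306), called in all 6 fits without 1 library but not without both WT 2 and WT 3 (adjusted p = 0.0855). It was higher than in hIAPP by test as well (1.02 ± 0.16, adjusted p = 0.0102), which was lost without hIAPP 2 or 3 (0.064 and 0.058). Cd4, the T helper cell co-receptor that mouse macrophages can also express at low level, was at 1.42, 1.01 and 1.04 CPM against 0.156, 0 and 0.333 CPM (adjusted p = 0.0141, lost without WT 1 at 0.142). Of 9 neutrophil markers 7 were below the filter. Csf3r, the receptor for granulocyte colony-stimulating factor, had 299 counts against 30 (ratio 3.93, exact 95% interval 2.69 to 5.92) and an adjusted p of 0.0374, which lost its call without each library but hIAPP_hCAST 3 (adjusted p = 0.0562 to 0.154). Ltf, a granule protein of neutrophils, was under 0.3 CPM in all 6 libraries.

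The central genes of MHC class II, which presents antigen to T helper cells, were lower. Of 12 tested genes of the list, H2-Ab1, H2-Aa and Cd74 were called lower, 7 were not called and 2 were called higher, the pseudogene H2-Ea-ps and Ctss, the protease that trims the invariant chain. H2-Ab1, the class II beta chain, was at 23.3, 19.5 and 14.9 CPM in hIAPP_hCAST and 47.5, 55.4 and 53.9 CPM in WT (-1.42 ± 0.20, adjusted p = 0.00273). H2-Aa, the alpha chain, was at 28.2, 24.6 and 20.5 CPM against 68.6, 34.6 and 79.8 CPM (-1.42 ± 0.25, adjusted p = 0.0108). Cd74, the invariant chain, was at 46.5, 45.8 and 38.5 CPM against 127, 70.5 and 127 CPM (-1.38 ± 0.23, adjusted p = 0.01). In the WT group the second library was lowest for H2-Aa and Cd74 and still above every hIAPP_hCAST library. All 3 falls were called in each of the 6 fits without 1 library and against hCAST (adjusted p = 0.00681, 0.0182 and 0.0182). Without WT 2 and WT 3, H2-Aa and Cd74 kept their call (adjusted p = 0.0411 and 0.0433) and H2-Ab1 did not (0.0942). In hIAPP islets they stood at 23.4 ± 7.56, 29.0 ± 9.39 and 52.5 ± 18.1 CPM, and none differed from hIAPP_hCAST by test (adjusted p = 0.642, 0.766 and 0.725). The 150 bases before the RefSeq start of H2-Aa, chr17:34287824-34287973 on the reverse strand of GRCm38.p6, are shown because these genes fell together, with the letters CTGATTGG of the Y box, a core element of class II promoters, in capitals.
H2-Aa: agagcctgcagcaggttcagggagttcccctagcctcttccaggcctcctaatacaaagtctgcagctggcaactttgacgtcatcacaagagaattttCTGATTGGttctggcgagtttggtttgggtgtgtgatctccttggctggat
The match lies 43 bases before the start, searched on both strands, and 4.10% of the 32851 promoter windows hold these letters.

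Fewer matrix genes were called higher than WT in hIAPP_hCAST islets than in hIAPP islets, as were fewer genes in all. Of 19 collagen genes, 1 was called higher than WT in hIAPP_hCAST and 14 in hIAPP, with medians of 0.39 and 1.55 against the same WT libraries. Of all 15595 tested genes, 263 (1.69%) were called higher in hIAPP_hCAST and 960 in hIAPP. The same shares apply to the list counts of both comparisons below. The median of the collagens in the test of hIAPP_hCAST against hIAPP was -0.93, with 1 gene called, Col8a1 (-0.98 ± 0.19, adjusted p = 0.0367), a call lost without hIAPP 1, 2 or 3 (0.123, 0.144 and 0.0634). Their summed level was 1568, 1463 and 817 CPM in hIAPP_hCAST 1, 2 and 3, 817, 1004 and 1281 CPM in WT and 1991 to 2522 CPM in hIAPP. The third hIAPP_hCAST library lay at the level of the lowest WT library. Without it 6 collagens were called higher than WT, beside 534 of all 15784 tested genes in that fit. The median against WT was 1.11 without WT 2, WT 3 and hIAPP_hCAST 3. Col12a1, a collagen on the surface of fibrils, was the called gene, at 4.05, 5.17 and 2.21 CPM against 1.87, 1.26 and 1.44 CPM (1.16 ± 0.31, adjusted p = 0.0468). Its call was lost in each fit that left out another library than hIAPP_hCAST 3 (adjusted p = 0.0845 to 0.159). Col18a1, a basement membrane collagen, had values of 26.5, 26.9 and 14.9 CPM against 13.3, 11.3 and 15.3 CPM and did not pass the test (adjusted p = 0.101).

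Of 27 other matrix and matrix-modifying genes, 2 were called higher than WT in hIAPP_hCAST and 16 in hIAPP. Fn1, which encodes fibronectin, was at 10.3, 9.91 and 5.84 CPM in hIAPP_hCAST, 2.68, 1.89 and 4.55 CPM in WT and 23.6, 23.7 and 19.9 CPM in hIAPP. It was above WT (1.43 ± 0.28, adjusted p = 0.0129, lost without WT 1 at 0.103) and below hIAPP (-1.37 ± 0.22, adjusted p = 0.0102, lost without hIAPP 1 or 2 at 0.0521 and 0.054). Timp2, an inhibitor of matrix metalloproteinases, rose by 0.35 ± 0.09 (adjusted p = 0.0394), a call that held only without hIAPP_hCAST 3 (0.00508) and was otherwise at 0.0563 to 0.156. Mmp14, a membrane-bound matrix metalloproteinase, was at 16.0, 18.2 and 11.8 CPM against 7.17, 11.3 and 12.5 CPM and did not pass the test (adjusted p = 0.0968). The number of these genes called was 0 without WT 1, 1 without WT 2, WT 3, hIAPP_hCAST 1 or hIAPP_hCAST 2, and 4 without hIAPP_hCAST 3. Of 18 basement membrane and heparan sulfate proteoglycan genes, Sdc4 and Gpc1 were called higher and Sdc2 lower. Sdc4, a cell surface syndecan, was at 127, 102 and 100.4 CPM against 80.4, 74.3 and 80.7 CPM (0.47 ± 0.09, adjusted p = 0.00913), called in all 6 fits without 1 library but not without both WT 2 and WT 3 (adjusted p = 0.159). Gpc1, a glypican, rose by 0.40 ± 0.10 (adjusted p = 0.0436), and Sdc2, another syndecan and a neighbour of Sema5a, fell by 0.40 (adjusted p = 0.014). Both were lost without WT 3 (adjusted p = 0.106 and 0.0704), and Gpc1 also without WT 1, WT 2 or hIAPP_hCAST 2 (0.127, 0.0677 and 0.158).

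Of 14 tested pericyte, stellate and smooth muscle genes, Pdgfrb, the platelet-derived growth factor receptor of pericytes, was called higher, against 10 genes in hIAPP. It stood at 91.3, 78.9 and 59.9 CPM in hIAPP_hCAST and 39.8, 50.4 and 54.9 CPM in WT (0.69 ± 0.15, adjusted p = 0.0255). The call was lost without WT 1, WT 2, hIAPP_hCAST 1 or hIAPP_hCAST 2 (adjusted p = 0.0601 to 0.0962). The sum of the list was 654, 645 and 406 CPM in hIAPP_hCAST, 390.1, 468 and 508 CPM in WT and 783 to 953 CPM in hIAPP. By test against hIAPP, Notch3, a receptor of mural cells, was lower in hIAPP_hCAST by 0.68 (adjusted p = 0.0424), as were 2 more genes of the list, Acta2 and Tagln, both outside the naming rule and chosen after their values were seen, with log2 fold changes of -1.12 and -1.02 (adjusted p = 0.0426 and 0.0167). Notch3 lost this call without hIAPP 1, 2 or 3 or hIAPP_hCAST 3 (adjusted p = 0.0702 to 0.139), Acta2 without each library but hIAPP_hCAST 1 (0.054 to 0.165) and Tagln without hIAPP 1 or 2 (0.0962 and 0.0564). Notch3 and Rgs5, a pericyte signalling regulator, did not pass the test against WT (adjusted p = 0.123 and 0.132). Without WT 3, 2 genes of the list were called higher than WT, without hIAPP_hCAST 3 there were 4, and without each other library 0. Of 13 endothelial genes, 2 were called lower and 0 higher, against 1 lower and 0 higher in hIAPP. Eng, the TGF-beta co-receptor endoglin, was at 28.4, 25.2 and 20.5 CPM against 36.6, 35.9 and 37.5 CPM (-0.58 ± 0.12, adjusted p = 0.0168), and was lower than in hIAPP too (-0.76 ± 0.11, adjusted p = 0.00724). Emcn, the endothelial sialomucin endomucin, was at 53.9, 47.3 and 47.6 CPM against 56.8, 75.6 and 73.2 CPM (-0.43 ± 0.10, adjusted p = 0.033). The fall of Eng was lost without WT 1 or WT 3 (adjusted p = 0.0506 and 0.0704) and that of Emcn without WT 2, WT 3 or hIAPP_hCAST 2 (0.0799, 0.158 and 0.103). Cdh5, VE-cadherin, had values of 30.3, 28.8 and 21.0 CPM against 32.4, 45.3 and 37.8 CPM and did not pass (adjusted p = 0.0738).

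**Figure D3:**
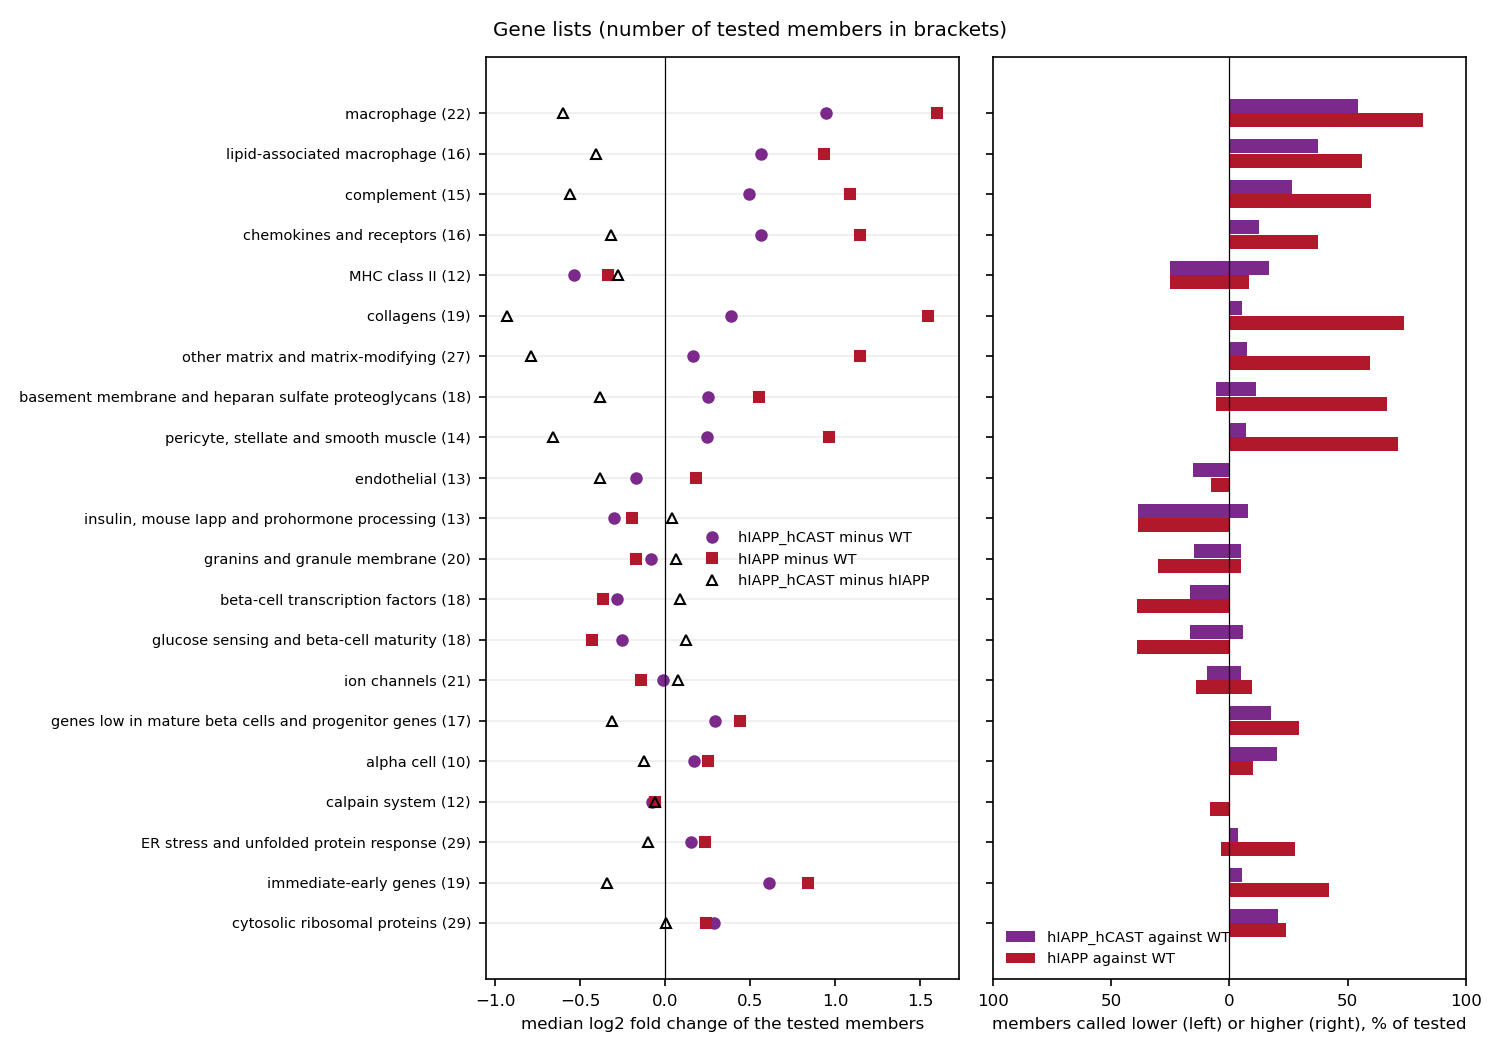
For 21 gene lists, the left panel gives the median log2 fold change of the tested members in hIAPP_hCAST minus WT (circles), hIAPP minus WT (squares) and hIAPP_hCAST minus hIAPP (triangles), and the right panel the share of tested members called lower or higher against WT. The collagen median is 0.39 in hIAPP_hCAST and 1.55 in hIAPP, and the macrophage median is 0.95 in hIAPP_hCAST, with the same WT libraries in both comparisons. For hIAPP_hCAST minus hIAPP both medians are negative, -0.93 for the collagens and -0.598 for the macrophage markers.

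Some beta-cell genes were lower in hIAPP_hCAST islets, Ins2 and Ucn3 among them, while most members of each beta-cell list did not pass the test. Of 13 genes of insulin, mouse Iapp and prohormone processing, 5 were called lower and 1 higher. Ins2, the main mouse insulin gene, was at 55881, 47628 and 53062 CPM in hIAPP_hCAST and 91379, 95927 and 81843 CPM in WT, a fitted ratio of 0.582 to WT (-0.78 ± 0.10, adjusted p = 0.000872). It was called in all 6 fits without 1 library and without WT 2 and WT 3 (adjusted p = 0.0277), but not against hCAST (-0.40 ± 0.10, adjusted p = 0.101), whose islets had 72338, 70520.3 and 63661 CPM. Ins1, the second mouse insulin gene, was at 59216, 47000.3 and 55147 CPM against 78195, 74972 and 74826 CPM (-0.50 ± 0.13, adjusted p = 0.0424). Its call was lost without each WT library and without hIAPP_hCAST 2 (adjusted p = 0.0772 to 0.158). Ero1lb, an oxidase that helps insulin to fold, was at 2253, 1698 and 1643 CPM against 3209, 2541 and 3102 CPM (-0.66 ± 0.15, adjusted p = 0.0246). Qpct, which cyclizes terminal glutamine of peptides, and Pcsk1n, an inhibitor of a prohormone convertase, fell by 0.61 and 0.33 (adjusted p = 0.0255 and 0.0262). Pam, the enzyme that amidates peptides such as IAPP, was also called, higher in hIAPP_hCAST (0.44 ± 0.10, adjusted p = 0.0303). It is outside the naming rule, and its call was lost without WT 2, WT 3 or hIAPP_hCAST 1 (0.0594 to 0.0946). Ero1lb lost its call without WT 1, WT 3 or hIAPP_hCAST 2 (adjusted p = 0.065 to 0.0938), Qpct without WT 1 or hIAPP_hCAST 2 (0.136 and 0.0867) and Pcsk1n without WT 1, WT 3 or hIAPP_hCAST 1 (0.0511 to 0.0824). The number of genes of the list called lower was 1 without WT 1, 2 without WT 3 or hIAPP_hCAST 2, 4 without WT 2 or hIAPP_hCAST 1, 5 without hIAPP_hCAST 3 and 1 without both WT 2 and WT 3.

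Of 18 genes of glucose sensing and beta-cell maturity, 3 were called lower and 1 higher, with a median of -0.25. Ucn3, urocortin 3, a marker of mature beta cells, was at 361, 316 and 320.1 CPM against 691, 613 and 667 CPM (-0.98 ± 0.13, adjusted p = 0.000702). No library overlapped between the groups, the fall was called in all 6 fits without 1 library, without WT 2 and WT 3 (adjusted p = 0.0401) and against hCAST (-0.71 ± 0.13, adjusted p = 0.0127). Ucn3 stood at 343 ± 34.9 CPM in hIAPP islets and did not differ from hIAPP_hCAST by test (adjusted p = 0.94). Npy, neuropeptide Y, had the largest fall of the genes named by size, at 15.4, 28.2 and 13.3 CPM against 54.1, 52.3 and 122 CPM (-2.05 ± 0.38, adjusted p = 0.0174). The third WT library was far above the other WT libraries, and the call was lost without it and without hIAPP_hCAST 1 (adjusted p = 0.0533 and 0.0558). Ttc28, which encodes a tetratricopeptide repeat protein, fell by 0.74 (adjusted p = 0.0226, lost without WT 2, WT 3 or hIAPP_hCAST 1 at 0.0616 to 0.077). Tmem27, the beta-cell membrane protein collectrin, rose by 0.34 ± 0.09 (adjusted p = 0.0477) and lost its call without each library but hIAPP_hCAST 2 (0.0627 to 0.129). The number called lower was 1 without WT 3 or hIAPP_hCAST 1, 2 without WT 2 and 3 without each other library.

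Of 18 beta-cell transcription factors, 3 were called lower and none higher. Tshz1, a zinc finger factor of islets, was at 189.7, 175 and 207 CPM against 253, 253 and 243 CPM (-0.39 ± 0.07, adjusted p = 0.00475), called in all 6 fits without 1 library but not without both WT 2 and WT 3 (adjusted p = 0.0738). St18 and Nkx2-2, regulators of endocrine cells, fell by 0.44 and 0.48 (adjusted p = 0.0283 and 0.0439). St18 was lost without WT 2 or hIAPP_hCAST 2 (adjusted p = 0.077 and 0.0833) and Nkx2-2 without each library but hIAPP_hCAST 3 (0.0704 to 0.155). None of the 3 was called against hCAST (adjusted p = 0.701, 0.556 and 0.932). The count was 1 without WT 2 or hIAPP_hCAST 2, 2 without WT 1, WT 3 or hIAPP_hCAST 1, and 5 without hIAPP_hCAST 3. Of 20 granin and granule membrane genes, 3 were called lower and 1 higher. Vgf, a granin that is cut into peptides, was at 30.5, 33.5 and 32.7 CPM against 19.3, 15.7 and 23.6 CPM (0.66 ± 0.13, adjusted p = 0.0104, lost without WT 1 at 0.0524). Vamp2, a vesicle SNARE, and Chga, chromogranin A, fell by 0.49 and 0.43 (adjusted p = 0.0392 and 0.0413). Vamp2 was lost without each library but hIAPP_hCAST 3 (adjusted p = 0.0524 to 0.116) and Chga without WT 2, WT 3, hIAPP_hCAST 1 or hIAPP_hCAST 2 (0.0565 to 0.161).

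Of 21 ion channel genes, 1 was called higher and 2 lower. Scn3a, a voltage-gated sodium channel of islets, was at 39.3, 34.9 and 35.2 CPM against 23.4, 17.6 and 23.7 CPM (0.69 ± 0.09, adjusted p = 0.000882). It was called in all 6 fits without 1 library, without WT 2 and WT 3 (adjusted p = 0.0277) and against hCAST (adjusted p = 0.0121). Trpm5, a calcium-activated cation channel of beta cells, was at 95.5, 83.5 and 68.1 CPM against 252, 229.9 and 200.02 CPM (-1.47 ± 0.30, adjusted p = 0.0247). Its call was lost in each fit without 1 library but hIAPP_hCAST 1 (adjusted p = 0.0533 to 0.0804). Cacna1d, an L-type calcium channel, fell by 0.36 (adjusted p = 0.0342, lost without WT 1, WT 2, hIAPP_hCAST 1 or hIAPP_hCAST 2 at 0.0684 to 0.118). Of 17 tested genes that mature beta cells keep low or that mark progenitors, 3 were called higher and none lower. Cd81, a tetraspanin of immature beta cells, was at 196, 184 and 183 CPM against 113, 120.3 and 152 CPM (0.54 ± 0.11, adjusted p = 0.0121), called in all 6 fits without 1 library, without WT 2 and WT 3 (adjusted p = 0.0325) and against hCAST (adjusted p = 0.0283). Serpina7, a hormone-binding serpin, rose by 1.26 ± 0.30 (adjusted p = 0.0409, lost without each library but hIAPP_hCAST 2 at 0.0662 to 0.155). Against hCAST, 1 gene was called lower in these lists, Ucn3, and Scn3a and Cd81 were called higher. In these beta-cell lists no gene was called between hIAPP_hCAST and hIAPP. Insulin genes held 15.8% to 16.3% of the counts in WT and 8.92% to 11.98% in hIAPP_hCAST, and the summed acinar genes stood at 81757, 170848 and 11692 CPM in hIAPP_hCAST against 88871, 48352 and 19178 CPM in WT. The part of acinar RNA in the beta-cell differences was not tested beyond a fit with the acinar share as a covariate, in which Ins2 and Ucn3 remained called.

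**Figure D4:**
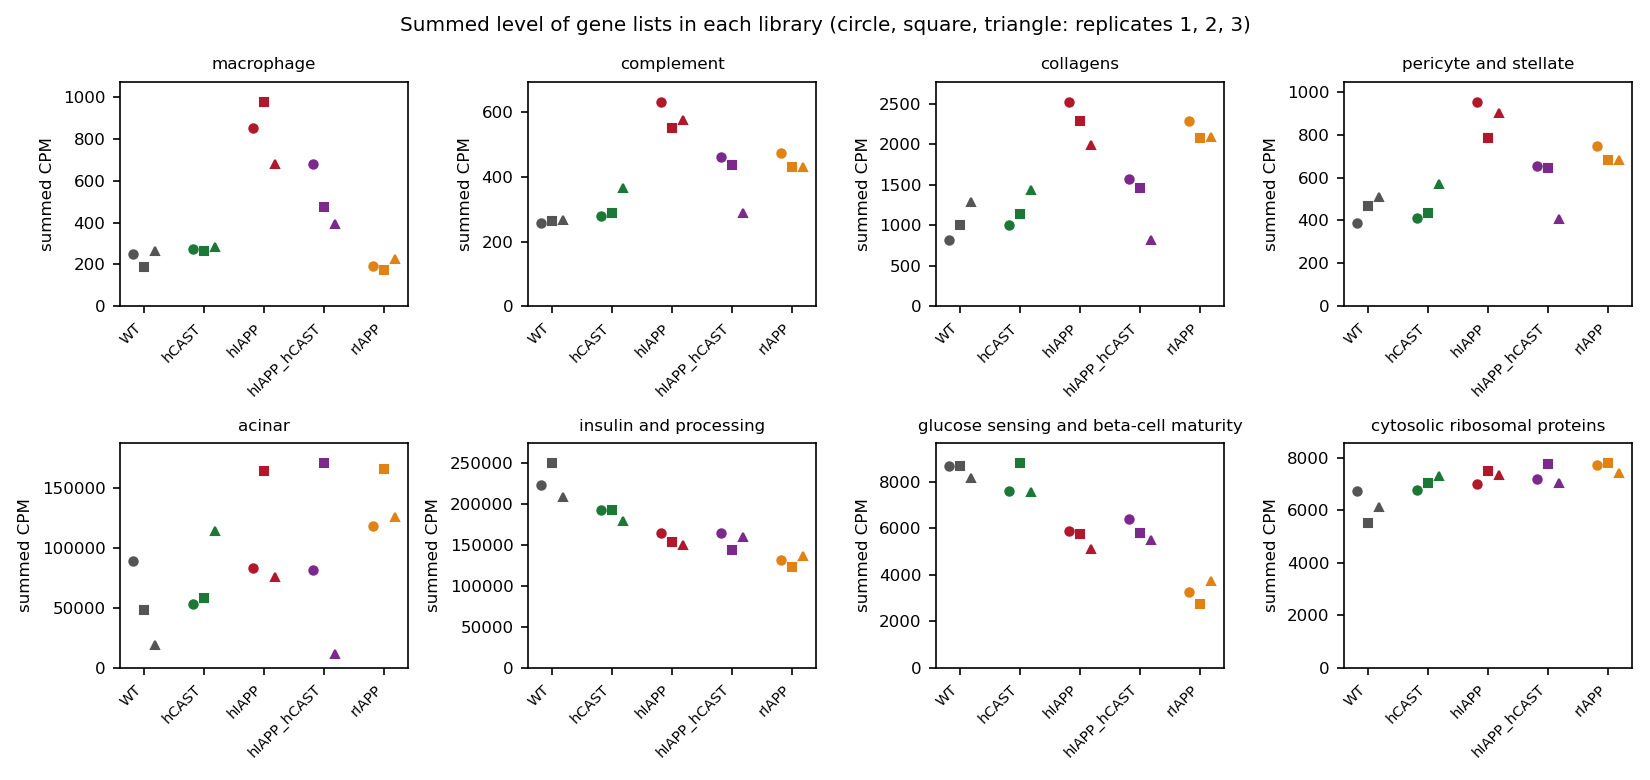
Summed CPM of the tested members of 8 gene lists in each library of the 5 groups; circles, squares and triangles are replicates 1, 2 and 3, and each vertical axis starts at 0. The macrophage sums of hIAPP_hCAST, 394 to 679.7 CPM, lie above those of WT, 189.6 to 262 CPM, and the collagen sums overlap between both groups.

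The other endocrine hormones did not differ by test. Gcg, the glucagon of alpha cells, stood at 23769, 25160.5 and 25594 CPM against 23689, 21381 and 20497 CPM (adjusted p = 0.324), Sst, the somatostatin of delta cells, at 1768, 1913 and 1877 CPM against 2119, 2319 and 2334 CPM (adjusted p = 0.13), and Ppy, pancreatic polypeptide, at 2804, 2734 and 2319 CPM against 1784, 2034 and 3674 CPM (adjusted p = 0.96). Of 10 alpha cell genes, 2 were called higher and none lower, among them Gc, the vitamin D-binding protein, at 154, 117 and 126 CPM against 96.7, 105 and 78.2 CPM (0.53 ± 0.12, adjusted p = 0.0311), a call lost without WT 1, WT 3 or hIAPP_hCAST 1 (0.0516 to 0.138). Of 6 delta and PP cell genes none was called with edgeR (2 at an unadjusted p below 0.05, 1 called by DESeq2), Hhex, a delta cell factor, having the smallest p (adjusted p = 0.0767) and Rbp4, a retinol carrier, one of 0.566. Of all 15595 tested genes, 2952 were at an unadjusted edgeR p below 0.05. None of 28 acinar genes was called with edgeR either (0 at an unadjusted p below 0.05, 0 called by DESeq2), with a median of 0.78 that fell to 0.04 without WT 2 and WT 3. The trypsinogen Try5 was at 2419, 6415 and 341 CPM in hIAPP_hCAST and 2452, 1375 and 483 CPM in WT (adjusted p = 0.562), and Zg16 and Pnliprp1, a zymogen granule protein and a lipase relative, were as uneven (adjusted p = 0.626 and 0.574).

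None of 12 tested calpain system genes, the proteases that calpastatin inhibits and their partners, was called with edgeR, with a median of -0.08 (5 at an unadjusted p below 0.05, 0 called by DESeq2). Over all tested genes, 2952 of 15595 were at an unadjusted edgeR p below 0.05. Capn5 stood at 41.9, 38.2 and 54.9 CPM against 37.3, 27.1 and 33.2 CPM (adjusted p = 0.0781), Capns1, the small regulatory subunit, at 119, 126 and 114 CPM against 129, 165 and 136 CPM (adjusted p = 0.13), and Capn7 had an adjusted p of 0.178. Without hIAPP_hCAST 2, 1 calpain gene was called higher, as was 1 in the fit with the acinar share as a covariate. Of 29 genes of endoplasmic reticulum stress, 1 was called higher in hIAPP_hCAST and 8 in hIAPP. Ppp1r15a, which restores translation after stress, was at 64.7, 72.3 and 63.3 CPM against 40.004, 51.6 and 46.1 CPM (0.59 ± 0.14, adjusted p = 0.0356), lost without each library but hIAPP_hCAST 3 (0.051 to 0.131). The chaperone genes Pdia6 and Creld2 did not pass the test (adjusted p = 0.0588 and 0.1). Of 19 immediate-early genes, which respond to stimulation and to tissue handling, Egr2 was called higher in hIAPP_hCAST and 8 genes in hIAPP, with a median of 0.61 in hIAPP_hCAST. Egr2 was at 2.13, 3.28 and 1.56 CPM against 0.467, 0 and 1.11 CPM (1.89 ± 0.47, adjusted p = 0.0369), lost without WT 1, WT 2, hIAPP_hCAST 1 or hIAPP_hCAST 2 (0.0504 to 0.235). Junb was at 173, 263 and 187 CPM against 68.1, 88.8 and 93.8 CPM and, like Ier3, did not pass (adjusted p = 0.0755 and 0.0774). All 29 cytosolic ribosomal protein genes had positive log2 fold changes, with a median of 0.29, and 6 were called higher. Rpl11, Rplp0, Rpl7 and Rps23 rose by 0.29, 0.38, 0.31 and 0.32 (adjusted p = 0.0209, 0.0341, 0.0372 and 0.039). These calls rested on single libraries, the WT libraries rich in ribosomal reads among them: without WT 2 or WT 3 none of the list was called, without both the median was 0.14, without WT 1 there were 16 calls, without hIAPP_hCAST 1, 2 and 3 there were 2, 0 and 10, and against hCAST 0.

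Among the largest falls were several genes outside these lists. Nnat, neuronatin, an imprinted gene of beta cells that takes part in insulin secretion, was at 63.6, 69.9 and 63.7 CPM against 184, 166 and 169 CPM (-1.40 ± 0.14, adjusted p = 8.07e-05). The libraries were tight within both groups, and the fall was called in all 6 fits without 1 library, without WT 2 and WT 3 (adjusted p = 0.0136) and against hCAST (adjusted p = 0.0102). Tmem45a, a transmembrane protein, was at 1.40, 1.09 and 0.676 CPM against 3.65, 3.15 and 3.88 CPM (-1.81 ± 0.25, adjusted p = 0.00101), called in all 6 fits without 1 library, and was lower than in hIAPP, 2.74 ± 0.534 CPM, by test (-1.39 ± 0.22, adjusted p = 0.0102, lost without hIAPP 1 or 3 at 0.0521 and 0.056). Mcoln3, a calcium channel of endosomes, was at 1.64, 0.870 and 0.992 CPM against 3.40, 3.15 and 2.77 CPM (-1.43 ± 0.29, adjusted p = 0.0129, lost without WT 1 at 0.0776). Fcgbp, a mucus-associated protein, was at 2.71, 2.78 and 1.17 CPM against 9.47, 5.04 and 7.98 CPM (-1.90 ± 0.35, adjusted p = 0.01, lost without WT 1 at 0.0534). Alb, albumin, fell by 1.63 (adjusted p = 0.0157, lost without WT 3 at 0.069), from a level under 6 CPM. Slc14a2, a urea transporter, was at 15.4, 10.9 and 21.5 CPM against 37.9, 25.8 and 72.7 CPM (-1.59 ± 0.35, adjusted p = 0.0343), with the third WT library far above the others. Cnnm1, a magnesium transport mediator, fell by 1.30 (adjusted p = 0.0416). Slc14a2 was lost without WT 3, hIAPP_hCAST 1 or hIAPP_hCAST 2 (adjusted p = 0.0815 to 0.118) and Cnnm1 without each library but hIAPP_hCAST 3 (0.0662 to 0.146).

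**Figure D5:**
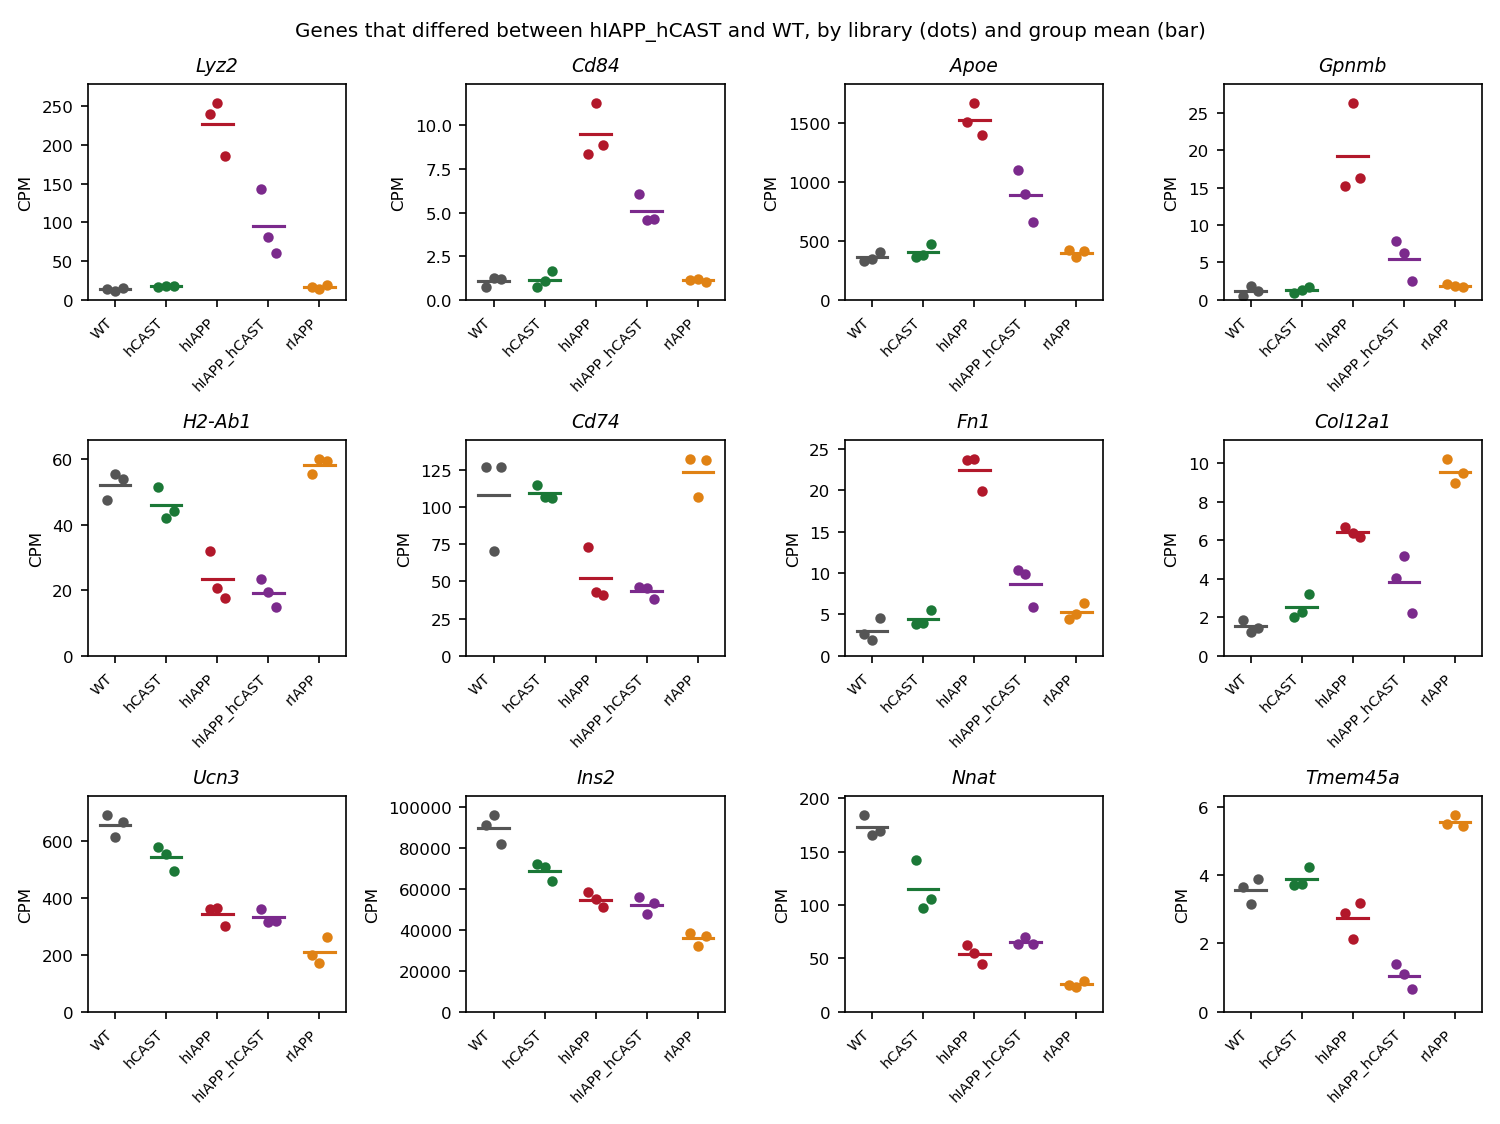
CPM of 12 called genes in each library (dots) and group mean (bar) for the 5 groups, on linear axes from 0. Lyz2, Cd84, Apoe and Gpnmb in hIAPP_hCAST lie between WT and hIAPP, H2-Ab1, Cd74, Ucn3 and Ins2 lie near hIAPP and below WT, and Tmem45a is lowest in hIAPP_hCAST.

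The difference of hIAPP_hCAST from WT was set beside that of hIAPP by the direct test of hIAPP_hCAST against hIAPP, in which the WT libraries enter only the filter and the shared estimate of spread. The number of genes called in this test fell from 70 to 16, 18 and 21 without hIAPP 1, 2 and 3 and to 2 in a fit of both groups alone, and was 61 without WT 2 and WT 3. Of the 70 genes, 11 were called in all 6 fits that left out 1 library of either group, Edil3, Eng, Loxl1, Tram1l1, H2-Ea-ps and 1700006A11Rik among them. Of the 535 genes called against WT, 13 were lower and 7 higher than in hIAPP by this test, and 43 genes not called against WT were lower than in hIAPP. Called higher than WT and lower than hIAPP were 8 genes, among them Apoe (1103, 901 and 661 CPM, 1513, 1667 and 1401 CPM in hIAPP; -0.78 ± 0.15, adjusted p = 0.0382), Gpnmb (19.2 ± 6.10 CPM in hIAPP; -1.81 ± 0.36, adjusted p = 0.0463), Ms4a7 (-0.84 ± 0.15, adjusted p = 0.0203) and Fn1. That the double transgenic mean of these genes lay between the WT and the hIAPP mean follows from how they were picked. Their calls against hIAPP depended on single libraries, and 1 of the 8 genes kept it in all 6 fits. Without hIAPP 1 the adjusted p was 0.123 for Apoe, 0.0826 for Gpnmb, 0.122 for Ms4a7 and 0.0521 for Fn1, without hIAPP 2 it was 0.152, 0.159, 0.0874 and 0.054, and without hIAPP 3 it was 0.065, 0.0751, 0.058 and 0.0324. Apoe and Gpnmb also lost it without hIAPP_hCAST 2 (adjusted p = 0.0517 and 0.0552). Lyz2, at 226 ± 35.6 CPM in hIAPP, had an adjusted p of 0.0567 in this test. Outside the naming rule and chosen after their values were seen, Loxl1, a lysyl oxidase-like enzyme of matrix crosslinking, and Cxcl12, a chemokine of stromal cells, were lower than in hIAPP (-1.39 and -0.92, adjusted p = 0.0013 and 0.0102), with log2 fold changes from WT of 0.11 and 0.30 that did not pass (adjusted p = 0.844 and 0.339). Cxcl12 lost its call against hIAPP without hIAPP 1 or 3 (adjusted p = 0.0502 and 0.052). Edil3, an integrin-binding matrix protein, was higher in hIAPP_hCAST than in WT (1.25, adjusted p = 0.00416) and than in hIAPP (1.45, adjusted p = 0.00194). It did not differ from hCAST by test (0.14, adjusted p = 0.922). The interaction, the double difference of hIAPP_hCAST and hIAPP less that of hCAST and WT, called 0 genes with edgeR, with 1343 at an unadjusted p below 0.05, while DESeq2 called 43 genes, 12 higher and 31 lower, and voom called 2.

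Of the 73 named genes that were called, 25 stayed called in each of the 6 fits without 1 library, 13 lost the call in 1 fit and 11 in 5 of the 6. The 25 were the 17 genes that were also called without WT 2 and WT 3, and 8 genes that were not called in that fit: the macrophage genes Lyz2, Cx3cr1, Ctse and Tlr7, the B cell gene Cd79a, H2-Ab1, Tshz1 and Sdc4. All these fits took part of their estimate of spread from the other groups, whose libraries were more alike. The fit of hIAPP_hCAST and WT alone called 62 of 14990 tested genes, and 51 of the 99 named genes were weaker in it. Which of the 25 kept their call in the fit of both groups alone is not reported here.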

How the data were processed

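Islet RNA was extracted with a column kit, depleted of ribosomal RNA and sequenced, per the labels' protocols. The authors deposited raw read counts per gene and FPKM values for 15 libraries. STAR, HTSeq and GRCm38 (mm10) are named in the submitters' processing notes, without versions. Whether counting used strand was not given in the sources used here. Of 24060 entries, Rn45s, Lars2 and Mir6236 were left out before scaling, because their share differed widely between libraries, and 15595 passed edgeR's low-count filter. Counts were fitted with edgeR 4.0.16 (R 4.3.3, quasi-likelihood test, TMM, robust, 5 groups sharing 1 estimate of spread, common biological coefficient of variation 0.128) and p-values adjusted by Benjamini-Hochberg over all tested genes, called below 0.05. Standard errors are the log2 fold change divided by the square root of F. Ratios of summed counts of single genes carry exact 95% intervals for counting error only. DESeq2 1.42.0, limma 3.58.1 (voom with sample weights) and log2 of the deposited FPKM plus 1 were alternatives. On simulated counts for this comparison (15448 genes tested), the fit recovered 65.7% of 67 genes changed 1.5-fold, 82.1% of 67 changed 2-fold and 98.5% of 66 changed 4-fold, and called 7 unchanged genes. Changed genes had a mean of at least 1 CPM, and each gene had the same simulated spread in all groups. The wider spread within WT and hIAPP_hCAST was not simulated, so these shares and the 7 false calls do not carry over to the real libraries. Genes were named by rule: the hormones and Cast, the 12 largest rises and falls without overlap and with a mean of at least 1 CPM, the 5 smallest p-values, from each of 26 described lists the members with the smallest p (up to 4, or 3 where fewer than 3 were called) and the 6 line genes. Some results that this rule selects are not reported here. The members and lists were chosen with earlier results of these data known. Promoter sequences are from RefSeq on GRCm38.p6.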

Additional observations from a re-analysis of the deposited data

How the results depend on the processing

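Against 535 genes called between hIAPP_hCAST and WT (263 higher, 272 lower), DESeq2 called 928 (395 and 533), a fit with the acinar share as covariate 873 (415 and 458), voom with sample weights 336 (143 higher), a fit of the compared groups alone 62 (32 and 30), and fits without WT 2 and WT 3 or without these and hIAPP_hCAST 3 46 (24 and 22) and 239 (161 and 78). Leaving out 1 library gave 207 to 931 calls, 83 to 534 higher and 124 to 397 lower. On the deposited FPKM plus 1 on the log2 scale, the median of all genes was 1.29 and 13306 genes were called, 13305 higher and 1 lower, while rescaling the FPKM gave 727 higher and 53 lower with a median of 0.12. Beside the 70 genes called against hIAPP, DESeq2 called 280, the acinar covariate 127, FPKM 11, rescaled FPKM 40, no filter 107, the compared groups alone 2, voom 115, the fit without WT 2, WT 3 and hIAPP_hCAST 3 111, and fits without 1 library 16 to 172. Beside the 116 called against hCAST, these were 258 with DESeq2, 349 with the acinar covariate, 19 with FPKM, 66 with rescaled FPKM, 9 with the compared groups alone, 311 with voom and 378 without WT 2, WT 3 and hIAPP_hCAST 3, and 36 to 364 without 1 library. Beside the 0 genes called for the interaction, these were 43 with DESeq2, 50 with FPKM, 2 with rescaled FPKM, 2 with voom, 8 without WT 2, WT 3 and hIAPP_hCAST 3, and 0 to 5 without 1 library. The cause of these shifts was not tested. The fit of the compared groups alone has fewer samples to estimate the spread, and it leaves out the groups whose libraries were most alike. Correlations of log2 CPM were 0.981 to 0.993 within hIAPP_hCAST and 0.977 to 0.992 within WT, against 0.994 to 0.997 within the other groups.

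On unscaled FPKM, where all genes together shifted by 1.29, 25 called falls had a positive sign: Cacna1d stood at 1.30, Cd74 at 0.66, Chga at 1.62, Cnnm1 at 0.17, Emcn at 1.45, Eng at 0.98, Ero1lb at 1.37, H2-Aa at 0.62, H2-Ab1 at 0.47, Ins1 at 1.55, Ins2 at 1.27, Mcoln3 at 0.031, Nkx2-2 at 1.32, Nnat at 0.60, Npy at 0.031, Pcsk1n at 1.68, Qpct at 0.75, Sdc2 at 1.30, Slc14a2 at 0.14, St18 at 1.42, Trpm5 at 0.47, Tshz1 at 1.49, Ttc28 at 0.74, Ucn3 at 1.05 and Vamp2 at 1.20. With hCAST in place of WT, Nkx2-2 stood at 0.085. No called gene among the 99 named changed direction in the other settings. No paired analysis was possible because the replicate numbers were given in accession order and pair no samples. The 1667190 counts of WT 2 outside the ribosomal-rich genes limit what could be detected among low genes.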

Other observations

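In other gene groups few or no genes were called between hIAPP_hCAST and WT islets, which does not show that they were unchanged. Of 14 duct cell genes 1 was called lower, Ambp, a plasma protease inhibitor precursor, and of 18 tested imprinted genes Plagl1, a zinc finger factor, fell beside Nnat. Of 25 genes of cholesterol synthesis and sterol handling, Fdft1, the squalene synthase, and Osbpl1a were called higher. With edgeR, 0 of 26 interferon response and MHC class I genes were called (5 at an unadjusted p below 0.05, 0 called by DESeq2), 0 of 19 NF-kB and TNF signalling genes (5 and 0), 0 of 17 chaperone genes (6 and 3) and 0 of 22 respiratory chain genes (6 and 0). These counts stand beside 2952 of all 15595 tested genes at an unadjusted edgeR p below 0.05.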
